A study of Homo sapiens with 36 samples.

Results

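The genes described here encode subunits of the mitochondrial respiratory chain and of ATP synthase. They were chosen by gene symbol, as those annotated to complex I (NDUF genes), complex II (SDH genes), complex III (UQCR genes), complex IV (COX genes and the COXFA4 group) or ATP synthase (ATP5 genes). A gene also needed a probe with a detection p under 0.01, called above background here, in each of the 3 replicates of some group. Of 85 matching symbols on the array annotation 78 met this, out of 11048 genes tested in all. They comprised 33 genes of complex I, 3 of complex II, 7 of complex III, 14 of complex IV, 18 of ATP synthase and 3 copies (ATP5F1EP2, UQCRBP1 and UQCRHL) that lie outside the complexes. The symbols COX6A2, COX7B2, COX8C, COXFA4L2, NDUFB2-AS1, NDUFC2 and NDUFS6 did not pass. Of the 78 genes, 73 were above background on all 36 arrays, and the other 5 were COX7A1, COXFA4L3, COX6B2, NDUFB1 and NDUFB4.

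The respiratory chain passes electrons from NADH and succinate through complexes I to IV to oxygen and pumps protons across the inner mitochondrial membrane. ATP synthase lets those protons back through a rotating ring of c subunits and makes ATP in its F1 head. The subunits measured here are encoded in the nucleus, and several of complex IV have variant forms that take the place of the common form in particular tissues or states.

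Expression was read from 36 Illumina BeadChip arrays, which covered 12 groups of 3 labelled biological replicates, all labelled as MCF-10A, a non-transformed human mammary epithelial line. The groups were wild type (mock control), shControl (a scrambled hairpin) and 10 stable lentiviral hairpin lines, with 2 hairpins for each of 5 targets: shATM-1 and shATM-3, shATR-3 and shATR-4, shCHK1-3 and shCHK1-4, shCHK2-1 and shCHK2-2, and sh53BP1-1 and sh53BP1-2. Each hairpin is represented by 1 selected line, and RNA came from plates of 10 cm that had received 200000 cells 48 hours earlier. The targets are the kinases of the DNA damage signal ATM, ATR, CHK1 and CHK2, and the adaptor 53BP1. How cells with lowered levels of these proteins differ from control cells is the question the design poses.

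The arrays were even in quality, with 33.5% to 38.3% of probes above background, and the lowest correlation between replicates was 0.984. The targeted gene stood at 53.8% and 48.8% of shControl for ATM, 84% and 82.9% for CHEK1, 50.2% and 93.2% for CHEK2 (adjusted p = 0.652 in shCHK2-2) and 16% and 19.8% for TP53BP1, while no ATR probe passed the filter. The 8 lines with ATM, ATR, CHK1 or CHK2 hairpins, called the 8 kinase lines below, stood apart from the other 4 groups and went against their label. MTAP and CDKN2A lie in a region that MCF-10A is known to lack. MTAP was above background on 24 of 24 arrays of the 8 kinase lines (log2 signal 8.98 to 10.43) and on 0 of the 12 other arrays, and CDKN2A behaved in the same way (8.72 to 9.24). So did CDKN2B (6.26 to 8.17), whose means in the 8 kinase lines went from 6.39 in shCHK2-2 to 8.07 in shCHK2-1. CCND2 lay between 12.82 and 13.54 in the 8 kinase lines and between 4.21 and 4.61, below background, elsewhere. Hairpin target and this difference between the lines cannot be told apart in any comparison of the 8 kinase lines with wild type, shControl or the sh53BP1 lines. Comparisons between the hairpins of a target, and among the other 4 groups, do not cross it. The percentages of shControl given above for ATM, CHEK1 and CHEK2 do cross it. Within the 8 kinase lines, CHEK1 had means of 8.49 and 8.47 in the CHK1 lines and 9.55 to 10.09 in the others (shControl 8.74). CHEK2 had 5.96 in shCHK2-1, 6.86 in shCHK2-2 and 7.09 to 7.98 in the others (shControl 6.96). ATM had 8.11 and 7.97 in the ATM lines and 8.61 to 9.07 in the others.

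Of 11 basal mammary markers, 7 were above background in every group, and of 8 luminal markers 4 to 8 were. The summed signal of the 8 luminal markers lay between 8729 and 11489 in the 8 kinase lines and between 16319 and 24733 in the other 4 groups (7 of 8 lower, median difference -1.53, MUC1 -6.65). The summed signal of the 7 basal markers tested lay between 12139 and 30972 in the 8 kinase lines and between 10564 and 15152 elsewhere (6 of 7 higher, median difference 0.77). Of 9 fibroblast, 6 immune and 4 endothelial markers, 0 to 2, 2 and 0 to 2 were above background, and of 6 muscle markers 0 were in any group. The summed signals of the tested fibroblast, immune and endothelial markers were 209 to 463, 1872 to 2103 and 46 to 50 in the 8 kinase lines and 66 to 738, 1907 to 4846 and 137 to 197 elsewhere. The adipocyte marker tested (1 of 3 listed) lay between 26 and 31 in the 8 kinase lines and between 25 and 1073 elsewhere. The part of these differences in the results below was not tested. In cell populations such as these, fewer cells of a kind and less RNA per cell cannot be told apart.

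The sequences just before the start of 4 genes that differed widely between lines are shown, since this is where the promoter lies. The windows are the 250 bases before the RefSeq start on build GRCh38.p14, written 5′ to 3′ on the gene's strand. Capitals mark matches, on either strand, to the core bound by NRF1 (a run of 10 letters with any base in the sixth place), to CCGGAAG (the core bound by ETS factors such as GABPA) or to TATANA, a core promoter element, and these motifs were chosen with these windows in view. NRF1 and GABPA are known as activators of many respiratory chain genes.

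ATP5MK (chr10:103396476-103396725, minus strand): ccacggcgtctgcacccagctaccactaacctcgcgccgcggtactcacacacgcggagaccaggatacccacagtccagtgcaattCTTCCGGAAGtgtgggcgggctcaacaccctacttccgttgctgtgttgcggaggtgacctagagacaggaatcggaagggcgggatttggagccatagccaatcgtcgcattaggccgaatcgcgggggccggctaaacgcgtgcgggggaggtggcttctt
NDUFA3 (chr19:54102605-54102854, plus strand): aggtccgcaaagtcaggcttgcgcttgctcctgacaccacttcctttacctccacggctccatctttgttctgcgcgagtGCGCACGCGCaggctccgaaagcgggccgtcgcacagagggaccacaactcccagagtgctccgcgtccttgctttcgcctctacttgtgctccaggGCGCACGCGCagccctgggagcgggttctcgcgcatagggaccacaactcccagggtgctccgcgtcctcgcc
COXFA4L3 (chr15:45430360-45430609, plus strand): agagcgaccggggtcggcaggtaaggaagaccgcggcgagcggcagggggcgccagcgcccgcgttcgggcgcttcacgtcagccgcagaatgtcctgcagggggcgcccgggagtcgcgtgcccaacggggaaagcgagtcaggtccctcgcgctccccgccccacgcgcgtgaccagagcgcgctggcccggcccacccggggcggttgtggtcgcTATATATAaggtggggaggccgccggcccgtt
NDUFA5 (chr7:123557819-123558068, minus strand): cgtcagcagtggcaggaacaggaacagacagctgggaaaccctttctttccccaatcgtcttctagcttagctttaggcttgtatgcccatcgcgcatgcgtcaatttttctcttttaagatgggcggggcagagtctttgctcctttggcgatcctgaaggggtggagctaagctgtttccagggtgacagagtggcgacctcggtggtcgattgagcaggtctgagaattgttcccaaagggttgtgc

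NDUFA3 held 2 NRF1 cores, ATP5MK held 2 ETS cores that overlap on opposite strands, and COXFA4L3 held 2 overlapping TATANA matches. The NDUFA5 window, 1 of 3 listed for that gene, held none of the 3 motifs, which says only that those letters are not in it. RefSeq windows were found for 64 of the 78 genes, 77 windows in all. The NRF1 core was in 16.9% of them against 5.07% of all 35116 windows, the ETS core in 23.4% against 8.52%, and the TATA motif in 16.9% against 17.7%. These shares are descriptions of the windows and were not set against the signals.

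All signals below are log2 values after background correction and quantile normalization, and a difference is a difference of group means on that scale with its standard error (SE). Levels of different genes are not compared, since each has its own probe. A gene was called when the adjusted p of limma's moderated test, adjusted by the Benjamini-Hochberg method over all genes tested, was under 0.05. SE and p rest on the spread of replicate arrays within groups, each hairpin group being a single line. They hold no spread between lines, also where sets of lines are compared. A call between sets of lines is thus a call on averages, and single lines can lie on the other side.

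Between shControl and wild type, 3 of the 78 genes were higher (14.5% of all genes were) and 11 were lower (16% of all genes). The median difference of the 73 genes above background throughout was -0.052, against -0.014 for all genes. The genes that rose were COXFA4L3 (0.75, SE 0.169), ATP5MC2, which encodes a c-ring subunit (0.33, SE 0.122), and the supercomplex factor COX7A2L (0.32, SE 0.0935). The second ATP5MC2 probe stood at -0.162 and was not called, and the ATP5MC2 call was lost under median scaling (adjusted p = 0.118 in limma) and without the filter on dim probes (0.0656). COX7A1 fell by 0.76 (SE 0.128), ATP5F1D, the delta subunit of F1, by 0.41 (SE 0.111), and the complex IV subunit COX7C by 0.37 (SE 0.082). The second ATP5F1D probe was not called (-0.09, adjusted p = 0.664 in limma). With only the compared groups in the limma fit, the calls of ATP5F1D and COX7A2L were lost (adjusted p = 0.0665 and 0.0804). COX6B2, the testis form of subunit VIb, was 7.28, 7.62 and 7.53 in wild type and 5.64, 4.89 and 5.47 in shControl, where 2 of 3 arrays were above background. COX6B2 passed the detection filter through wild type alone, so its higher signal there was a condition of its being listed and is not read as a result. It is nonetheless counted among the 11 lower genes. Calls in this comparison moved with single arrays: without replicate 3 of wild type 1 gene was higher, and 7 and 6 were lower without replicate 1 of wild type or replicate 2 of shControl.

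Most subunit genes had lower signal in the 8 kinase lines than in the other 4 groups. Of the 78 genes, 54 were lower (69.2%) and 13 higher (16.7%), against 39% and 40.6% of all genes tested. The median difference of the 73 genes above background throughout was -0.202, against 0.014 for all genes. Lower genes outnumbered higher genes in complex I (23 against 6 of 33), complex III (4 against 1 of 7), complex IV (11 against 1 of 14) and ATP synthase (14 against 2 of 18), while complex II had 1 each among 3. On 13 genes all 24 arrays of the 8 kinase lines lay below all 12 others (7.65% of all genes did), and on ATP5F1EP2 they lay above (5.9% of all genes). COX7A1 is counted in these 13, in the 54 and in the 11 of complex IV. It passed the detection filter only through the groups where it was high. Leaving out the lines of any 1 kinase target or the wild type arrays left 50 to 55 genes lower and 12 to 14 higher. The sh53BP1 lines were not left out. The shares of all genes lower were then 38.7% without ATM, 38.7% without ATR, 38.5% without CHK1, 37.9% without CHK2 and 37.7% without wild type, and the shares higher were 40.1%, 39.9%, 40.1%, 40% and 39.5%.

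**Figure D1:**
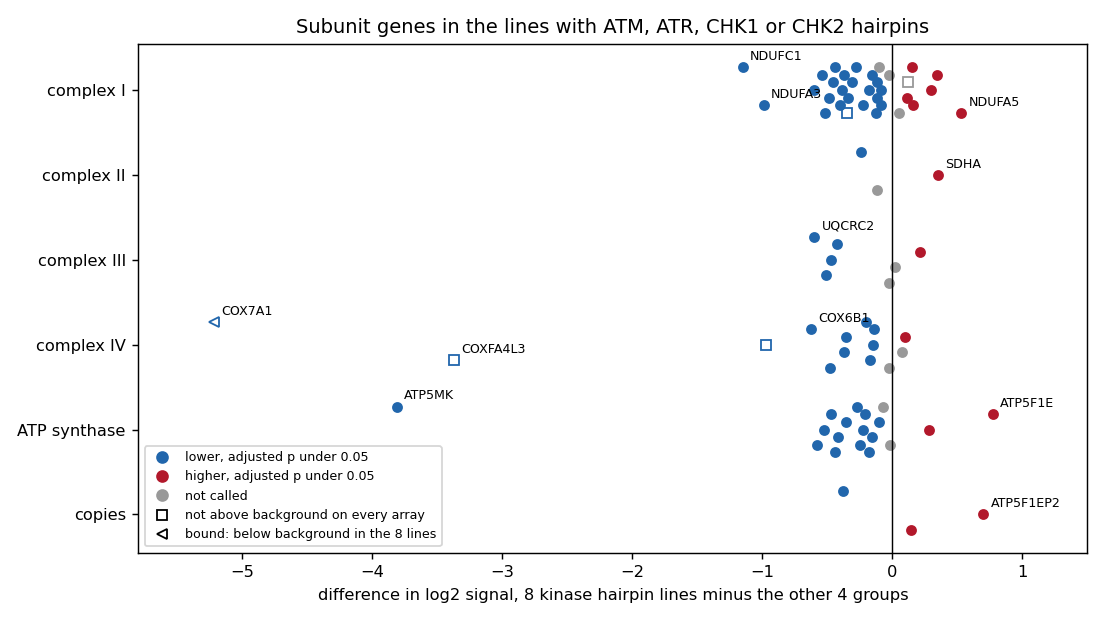
Difference in log2 signal between the 8 kinase lines and the other 4 groups for each of the 78 genes, by complex. Each point is a gene, filled where it was above background on all 36 arrays and open otherwise; COX7A1 is drawn at its lower bound. Most points lie left of 0, ATP5MK, COXFA4L3 and COX7A1 far from the rest, and ATP5F1E and ATP5F1EP2 furthest to the right.

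**Figure D2:**
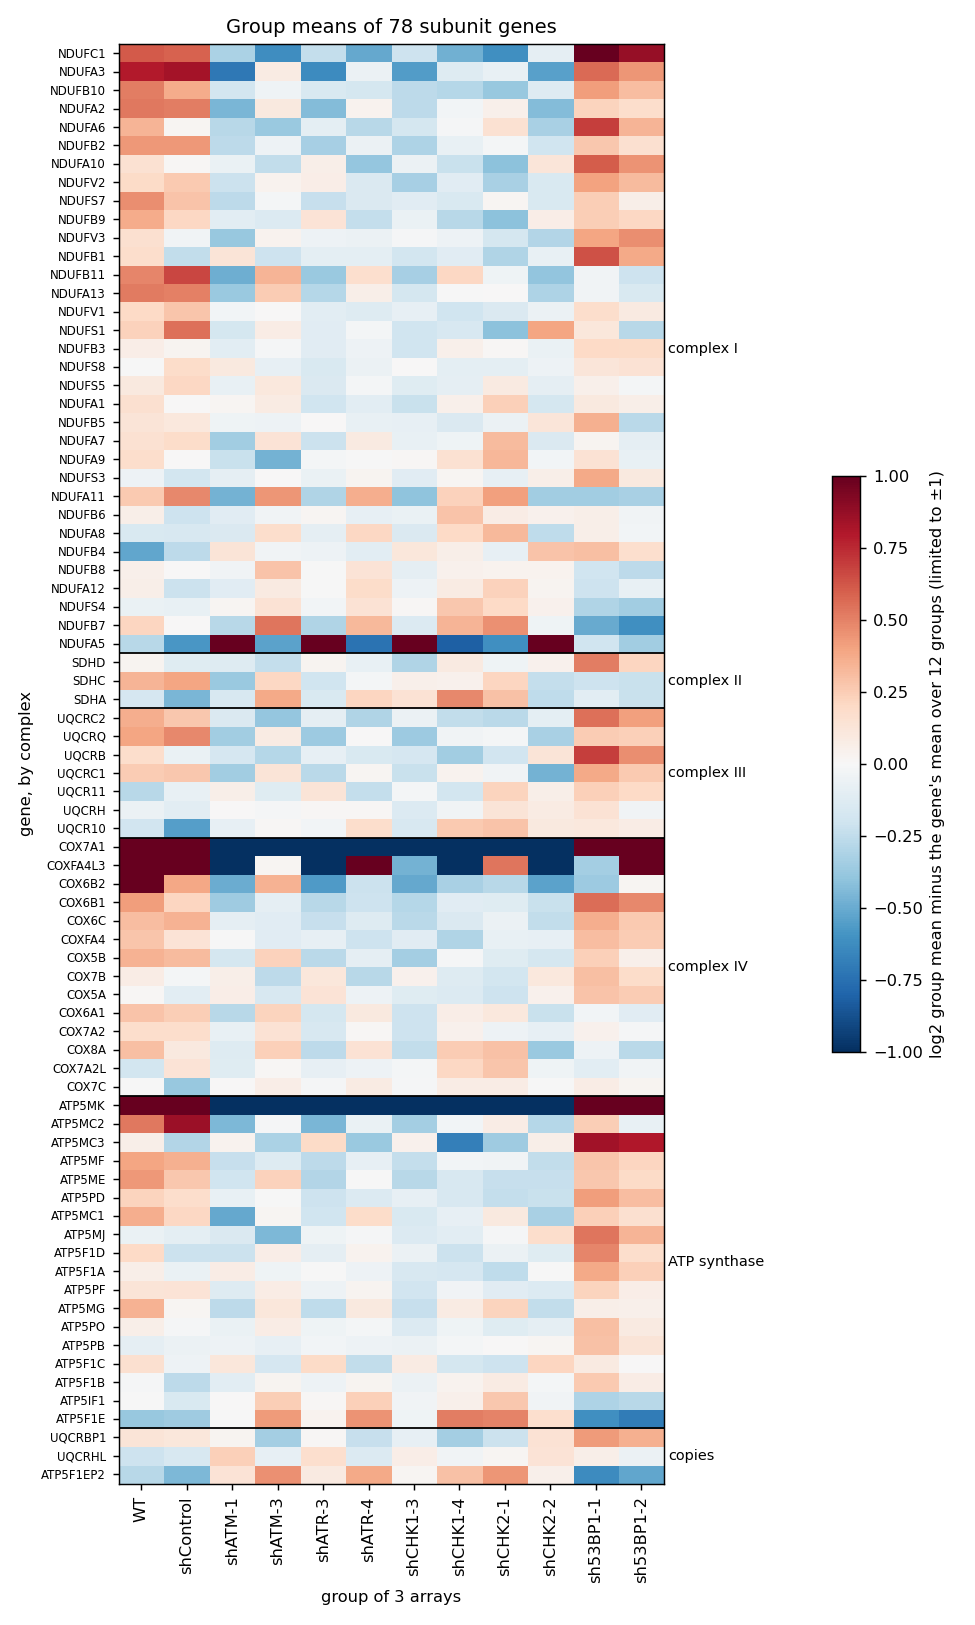
Mean log2 signal of each gene in each of the 12 groups minus that gene's mean over the groups, with colours limited to plus or minus 1. Genes are rows, ordered by complex and by the difference of the 8 kinase lines. The 8 columns of the kinase lines are mostly blue at the top of complexes I, III and IV and of ATP synthase, and NDUFA5 alternates between the lines of each kinase target.

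Within complex IV the variant forms of subunits differed most. COX7A1 encodes the form of subunit VIIa found mainly in heart and skeletal muscle. It was 11.17, 11.17 and 11.25 in wild type, 10.37, 10.31 and 10.63 in shControl, 10.2, 10.13 and 9.98 in sh53BP1-1, and 10.47, 10.48 and 10.53 in sh53BP1-2. It was below background on all 24 arrays of the 8 kinase lines (highest 4.99), so that the groups did not overlap and the fold is a bound. The bright mean was set against the lowest signal among detected probes of each array, which gave at least 37.2-fold lower signal in the 8 kinase lines. COX7A1 passed the detection filter only through the groups where it was high, so no p-value is given for this difference. Against shControl the bound was between 32.2-fold and 36.3-fold in each line. COX7A2, the widely expressed form, was lower in the 8 kinase lines by 0.14 (SE 0.029, adjusted p = 6.09e-05), with a lowest, median and highest of 13.04, 13.25 and 13.55 against 13.25, 13.4 and 13.56, so that the arrays overlapped. No muscle marker of the 6 listed was above background in any group.

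COXFA4L3 encodes a small protein that is induced in inflammation and takes the place of COXFA4 in complex IV. It was 11.45, 11.23 and 11.38 in wild type and 12.15, 11.95 and 12.22 in shControl, the highest of all groups. It was 7.22, 7.52 and 7.26 in sh53BP1-1 and 8.73, 8.98 and 8.94 in sh53BP1-2. Among the 8 kinase lines it was highest in shATR-4 (8.97, 8.85 and 8.61), followed by shCHK2-1 (8.44, 8.24 and 7.95), shATM-3 (7.86, 7.67 and 7.54), shCHK1-3 (7.3, 6.91 and 7.39) and shCHK1-4 (5.83, 5.59 and 5.87). It was above background on 1 of 3 arrays of shATR-3 and on 0 of 3 in shATM-1 and shCHK2-2, where it was at least 107-fold and 102-fold lower than in shControl. Each of the 30 hairpin-line arrays other than shControl thus lay below the 6 arrays of wild type and shControl, while the kinase and sh53BP1 lines overlapped. COXFA4, the common form, was lower in the 8 kinase lines by 0.37 (SE 0.032), with 24 arrays between 12.88 and 13.4 and the 12 others between 13.35 and 13.58.

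COX6B2 was above background on 2 of 24 arrays of the 8 kinase lines, both of shATM-3, and on 0 of the 6 sh53BP1 arrays, so no fold is given. It is counted among the lower genes of complex IV, although it passed the detection filter through wild type alone. Its common counterpart COX6B1 was lower in the 8 kinase lines by 0.63 (SE 0.036), with 12.13 to 12.66 against 12.79 to 13.32 and no overlap. The other common forms moved less: COX6A1 was lower by 0.15 (SE 0.035) and COX7B by 0.2 (SE 0.034), and COX8A by 0.03 (SE 0.04, adjusted p = 0.49), which was not called. For COX6A1 the means of the sh53BP1 lines (11.714 and 11.627) lay within the 8 kinase lines (11.468 to 11.969). Among the remaining complex IV genes, COX6C, COX5B and COX5A were lower by 0.48, 0.36 and 0.17, and COX7C was higher by 0.1 (SE 0.036). Means of wild type and shControl lay within the 8 kinase lines for COX5A (12.958 and 12.842, against 12.742 to 13.083). The same held for COX7B (11.996 and 11.904, against 11.642 to 12.035), and for both only the sh53BP1 lines lay above. For COX7C wild type (13.615) and both sh53BP1 lines (13.688 and 13.644) lay within the 8 kinase lines (13.605 to 13.699). Only shControl (13.241) lay below.

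In ATP synthase the gene that changed most was ATP5MK (chromosome 10, 103389050 to 103396475 on GRCh38.p14), which encodes a small membrane subunit also known as DAPIT that aids the pairing of ATP synthase complexes. The 24 arrays of the 8 kinase lines had a lowest, median and highest signal of 5.69, 6.43 and 6.8. The other 12 had 10.02, 10.27 and 10.36, so that the groups lay far apart. The difference was -3.81 (SE 0.059, adjusted p = 4.53e-31). It was read by 1 probe, which was above background on all 36 arrays, and without a further probe a change of level and a change in the sequence under the probe cannot be told apart.

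All 5 membrane accessory subunits, all 4 peripheral stalk subunits and all 3 c-ring genes were lower. For ATP5PB the means of wild type and shControl (12.852 and 12.883) did not lie above the 8 kinase lines (12.857 to 12.959). The same held for ATP5MJ (9.544 and 9.51 against 9.161 to 9.784). For both genes only the sh53BP1 lines lay above that range (13.234 and 13.075 for ATP5PB, 10.143 and 9.949 for ATP5MJ). For ATP5PO wild type and shControl (12.795 and 12.72) lay within the 8 kinase lines (12.597 to 12.809). For ATP5MG shControl (13.095) and both sh53BP1 lines (13.136 and 13.13) lay within them (12.819 to 13.302), and only wild type (13.426) lay above. For ATP5ME, ATP5PF, ATP5MC1 and ATP5MC2 the mean of sh53BP1-2 lay within the range of the 8 kinase lines. The c-ring genes ATP5MC2, ATP5MC3 and ATP5MC1, which encode the same mature protein, differed by -0.58 (SE 0.053), -0.53 (SE 0.051) and -0.36 (SE 0.054), although the second, dimmer probe of ATP5MC1 was higher by 0.93. For ATP5MC3 the wild type and shControl arrays (6.66 to 7.26) lay within the range of the 8 kinase lines (6.3 to 7.41), and only the sh53BP1 arrays lay above it. Of the F1 subunits, alpha (ATP5F1A, -0.23) and delta (ATP5F1D, -0.25) were lower. For ATP5F1A the means of wild type and shControl (13.408 and 13.285) lay within the 8 kinase lines (13.095 to 13.423). For ATP5F1D shControl (11.513) lay at their low end (11.509 to 11.789). Beta and gamma were not called, and epsilon (ATP5F1E) was higher by 0.77 (SE 0.059), with 10.57 to 11.65 against 10.22 to 10.76. Its copy ATP5F1EP2 was higher by 0.7 (SE 0.036; second probe 0.74), with 13.87 to 14.52 against 13.25 to 13.76. The arrays may not tell a gene from such a near-identical copy, so these 2 values may read the same RNA, and the same holds for UQCRB with UQCRBP1 and UQCRH with UQCRHL. The inhibitor ATP5IF1, which blocks ATP hydrolysis when the membrane loses its potential, had a lowest, median and highest of 10.98, 11.38 and 11.58 against 10.93, 11.01 and 11.33. It was higher by 0.28 (SE 0.045), but its second, dimmer probe was lower by 0.25.

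In complex I all 6 core subunits measured were lower (NDUFV1, NDUFV2, NDUFS1, NDUFS3, NDUFS7 and NDUFS8), by 0.09 to 0.44. For NDUFS3 the means of the 8 kinase lines (11.682 to 11.851) were above shControl (11.609) and on both sides of wild type (11.742). Only the sh53BP1 lines lay above them (12.174 and 11.889). For NDUFS8 wild type (12.493) lay within the range of the 8 kinase lines (12.346 to 12.596). For NDUFS1 wild type (6.382) and both sh53BP1 lines (6.263 and 5.868) lay within that of the 8 kinase lines (5.737 to 6.541). Only shControl (6.696) lay above it. Of the 27 accessory subunits 17 were lower and 6 higher. The accessory subunits NDUFC1 and NDUFA3 changed most. NDUFC1 had a lowest, median and highest signal of 8.65, 9.09 and 9.47 in the 8 kinase lines and 9.95 to 10.55 elsewhere, a difference of -1.15 (SE 0.05). NDUFA3 lay between 10.3 and 11.29 against 11.47 to 12.02, a difference of -0.99 (SE 0.04). For both genes no array of the 8 kinase lines reached the others. NDUFB10, NDUFB2 and NDUFV2 also did not overlap (-0.6, -0.49 and -0.44). The higher genes were NDUFA5 (0.53), NDUFB7 (0.34), NDUFS4 (0.3), NDUFA12 (0.16), NDUFB8 (0.15) and NDUFA8 (0.11), and on all 6 the 2 sets of arrays overlapped.

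Complex II, which feeds electrons from succinate, was split on averages only. SDHA, the flavoprotein that oxidises succinate, was higher by 0.35 (SE 0.048, second probe 0.39). The membrane anchor SDHD was lower by 0.24 (SE 0.059). The SDHA means of wild type (10.407) and both sh53BP1 lines (10.469 and 10.353) lay within the kinase lines (10.32 to 11.053). Only shControl (10.117) lay below. The SDHD means of wild type and shControl (10.864 and 10.717) lay within the kinase lines (10.533 to 10.93). Only the sh53BP1 lines (11.346 and 11.052) lay above. In complex III the core proteins UQCRC2 and UQCRC1 were lower by 0.6 (SE 0.043) and 0.43 (SE 0.043), and UQCRQ and UQCRB by 0.51 and 0.47. UQCR10 was higher by 0.21 (SE 0.062), and both of its further probes were lower, by 0.28 and 0.08. Of the 24 further probes for 22 of the genes, 7 probes of 6 genes (ATP5IF1, ATP5MC1, ATP5PB, NDUFV3, SDHC and UQCR10) differed in sign from the probe used.

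Other genes of mitochondrial metabolism and biogenesis were counted in the same comparison. Of 4 further subunits and carriers measured (COX4I1, NDUFAB1, CYC1 and CYCS), all 4 were lower, with cytochrome c1 (CYC1) at -0.45 and cytochrome c (CYCS) at -0.41. Of 26 genes of the TCA cycle and pyruvate dehydrogenase, 18 were lower and 6 higher, with a median of -0.31. The pyruvate dehydrogenase kinase PDK4 differed by -3.5 and isocitrate dehydrogenase IDH2 by -2.33. Of 14 carriers and inner membrane genes 9 were lower and 2 higher, with the adenine nucleotide carrier SLC25A4 at -1.27. Of 48 assembly factors 21 were lower and 14 higher (median -0.09), of 25 import genes 12 and 7 (median -0.06), and of 79 mitochondrial ribosomal genes 30 and 32 (median -0.03). Of 18 regulators of mitochondrial biogenesis 4 were lower and 5 higher (median -0.01), among them the coactivator PPARGC1B at -0.83 and GABPB1, the partner of GABPA, at 0.71. These counts stand beside 39% and 40.6% of all genes.

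Each kinase target was also read as the genes that both of its hairpins moved the same way against shControl. For ATM 20 of 78 genes were lower and 5 higher, against 22.9% and 22.4% of all genes. For ATR 30 were lower and 7 higher (24.3% and 23.4% of all genes). For CHK1 30 were lower and 6 higher (25.9% and 25.2%), and for CHK2 28 were lower and 8 higher (25.1% and 23%). These targets share the 3 shControl arrays, and their lists are therefore not compared. The lower counts of each target include COX7A1, and those of ATR, CHK1 and CHK2 also COX6B2. Both genes passed the detection filter only through groups where they were high. As a share of the 78 genes, the lower counts came to 25.6%, 38.5%, 38.5% and 35.9% and the higher counts to 6.41%, 8.97%, 7.69% and 10.3%.

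**Figure D3:**
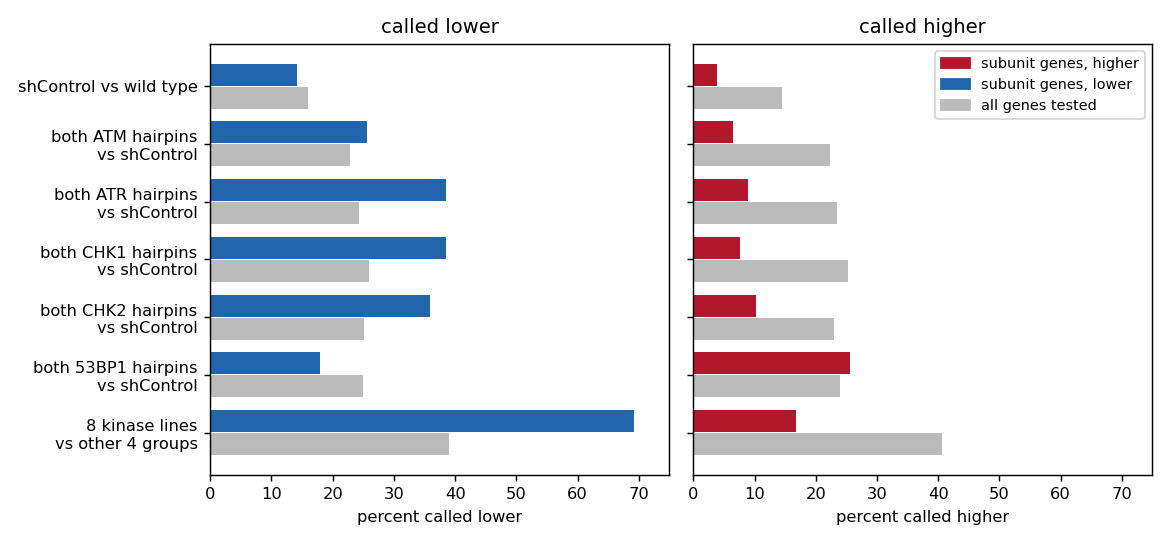
Share of the 78 subunit genes (coloured bars) and of all 11048 genes (grey bars) called lower, left, and higher, right, in each comparison. The subunit genes exceed the background most for lower calls in the 8 kinase lines (69.2% against 39%). For higher calls they are near it in the 53BP1 hairpins against shControl (25.6% against 24%). In the other comparisons drawn they lie below it for higher calls.

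Some higher calls against shControl rested on that line. COX7C was lower in shControl than in wild type by 0.37, and it was higher in the lines of all 4 kinase targets by 0.36 to 0.46 and in both sh53BP1 lines by 0.45 and 0.4. UQCR10 was 9.38, 8.99 and 9.4 in shControl against 9.76, 9.5 and 9.59 in wild type. The second UQCR10 probe lost the call in shATM-1 (0.159), shATR-3 (0.277), shATR-4 (0.059) and shCHK2-1 (0.224) and was lower in shCHK1-4 (-0.392). With wild type in place of shControl the higher counts were 2 for ATM, 2 for ATR, 4 for CHK1 and 3 for CHK2, while 26, 28, 33 and 28 genes were lower. These lower counts include COX7A1 and COX6B2, which passed the detection filter only through groups where they were high. Of all genes 19.8%, 20.6%, 22.7% and 21.1% were then higher and 21.7%, 22.9%, 25% and 24% lower. Without replicate 2 of shControl, 2 genes were higher for ATM and 4 for ATR. Lower counts for CHK2 came to 17 with median scaling in place of quantile normalization.

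The 53BP1 hairpins gave a different picture within the group of cells that lacked MTAP signal. Against shControl, 20 of the 78 genes were higher in both lines and 14 lower, or 25.6% and 17.9%, against 24% and 25% of all genes. The median difference of the 73 genes was 0.092 in sh53BP1-1 and 0.035 in sh53BP1-2, against -0.005 and 0.002 for all genes. With wild type as the control 8 were higher and 18 lower (17.8% and 21.3% of all genes), so the balance of calls changed with the control used. The 18 include COX6B2, which passed the detection filter through wild type alone. With median scaling 20 were higher and 8 lower. Without replicate 2 of shControl 13 were higher.

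The genes that rose in the sh53BP1 lines included the c-ring gene ATP5MC3. It was 8.18, 7.89 and 7.83 in sh53BP1-1 and 7.89, 8.02 and 7.86 in sh53BP1-2, against 6.87, 6.96 and 6.66 in shControl and 7.05, 7.25 and 7.26 in wild type. All 6 sh53BP1 arrays were above all 30 arrays of the other groups, the highest of which was 7.41. Against shControl the differences were 1.13 (SE 0.118, adjusted p = 1.8e-09) and 1.09 (SE 0.118, adjusted p = 4.69e-09). Of the 5 F1 genes, alpha, beta and delta rose (ATP5F1D by 0.7 and 0.39), and in complex III UQCRB rose by 0.76 and 0.53, although its second probe was not called in sh53BP1-2 (0.24). UQCR10 rose by 0.66 and 0.62 against the low level of shControl noted above, and its second probe was not called in sh53BP1-2 (0.15). In complex I 6 genes rose and 9 fell, all of the latter accessory subunits.

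Among the genes that fell, COXFA4L3 differed by -4.78 in sh53BP1-1 (SE 0.169, 27.4-fold lower) and by -3.22 in sh53BP1-2 (SE 0.169, 9.35-fold lower). The accessory subunit NDUFB11 was 11.39, 11.6 and 11.67 in shControl, 10.97, 10.77 and 10.83 in sh53BP1-1 and 10.72, 10.69 and 10.65 in sh53BP1-2. The groups did not overlap, and the differences were -0.7 (SE 0.106) and -0.87 (SE 0.106). NDUFA11 fell by 0.83 (SE 0.117) and 0.8. The c-ring gene ATP5MC2 fell by 0.61 and 0.93, but its second probe, above background on 22 of 36 arrays, was higher in sh53BP1-2 by 0.51.

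Of the other lists, 41 of 79 mitochondrial ribosomal genes rose and 4 fell in both sh53BP1 lines, and 17 of 25 import genes rose and 2 fell, with TIMM8A at 1.38 and 1.44. Of 14 carriers and inner membrane genes 10 rose and 1 fell, of 48 assembly factors 16 rose and 6 fell, and of 18 biogenesis regulators 11 rose and 1 fell. PPARGC1B was higher by 2.82 and 2.31. Of 26 genes of the TCA cycle and pyruvate dehydrogenase 9 rose and 6 fell, with the kinase PDK3 at -2.88 and -2.43. Of all genes 24% rose and 25% fell in both lines. These values are against shControl, in which PDK3 was higher than in wild type by 2.5 and PPARGC1B lower by 0.76.

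**Figure D4:**
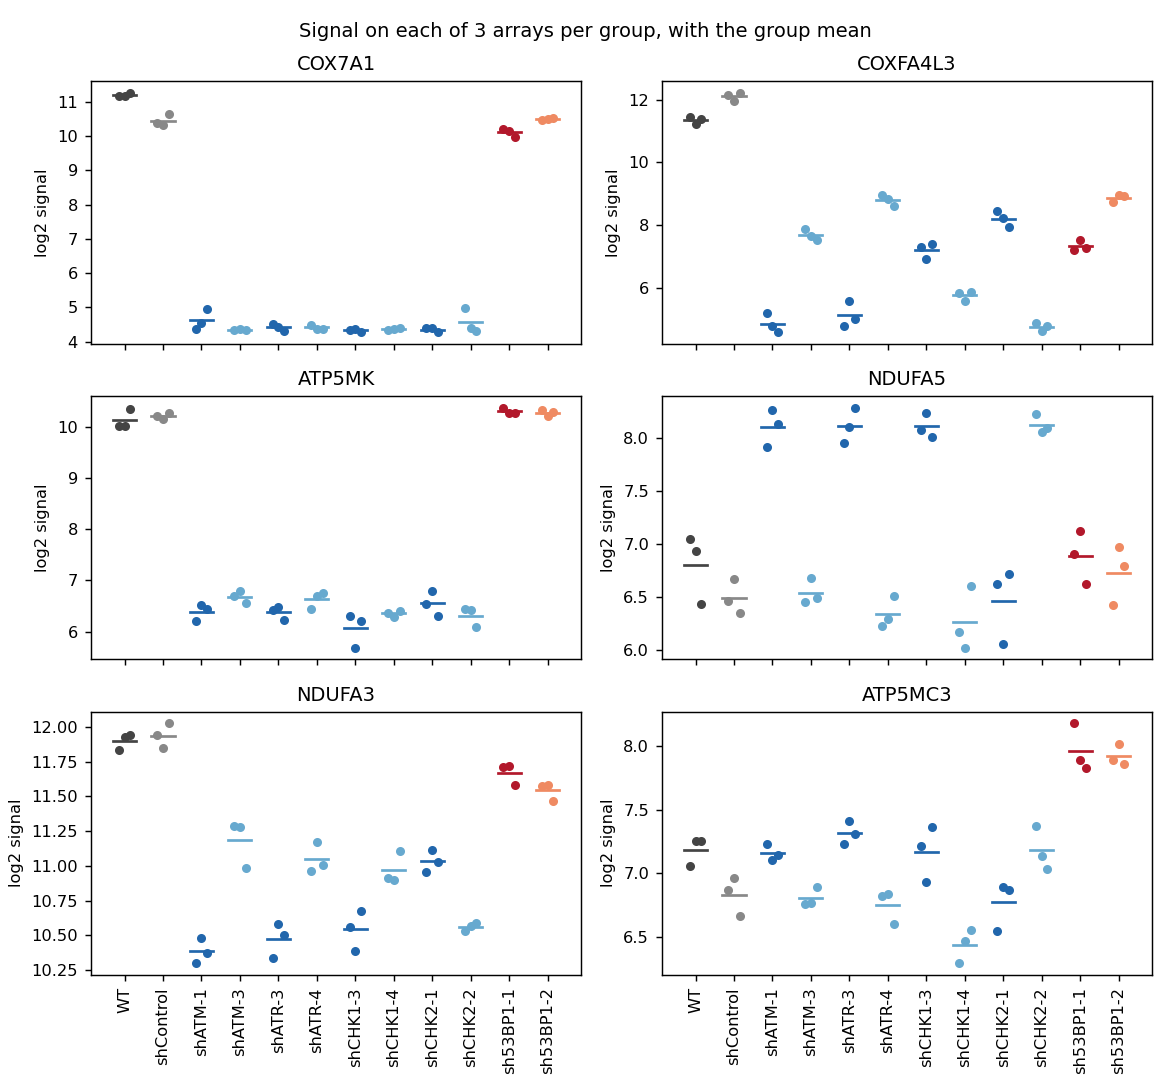
Log2 signal of 6 genes on each array (points) with the mean of 3 arrays (line) for the 12 groups; each panel has its own vertical scale. COX7A1 and ATP5MK separate the 8 kinase lines from the other groups, COXFA4L3 differs from line to line, NDUFA5 and NDUFA3 separate the hairpins of each kinase target, and ATP5MC3 is highest in the sh53BP1 lines.

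The hairpins of a target were compared directly, without any control array, first label minus second. Higher and lower counts were 11 and 31 for ATM (19.2% and 24.4% of all genes), 9 and 22 for ATR (16.8% and 24.1%), 5 and 25 for CHK1 (12.1% and 20.3%) and 28 and 12 for CHK2 (26.2% and 19.2%). For 53BP1 they were 3 and 1, against 2.36% and 5.03% of all genes. The direction of the family as a whole depended on the scaling. The median difference of the 73 genes was -0.14, -0.09, -0.12 and 0.1 in the ATM, ATR, CHK1 and CHK2 pairs after quantile normalization, and 0.09, 0.13, 0.03 and -0.15 when each array was scaled to its median instead. The counts then became 18 and 16, 15 and 7, 12 and 4, and 10 and 25. Of all genes 23.9% and 22.5%, 19.5% and 24%, 14.2% and 17.5%, and 23.7% and 23.4% were then higher and lower, and their median moved by less than 0.1 in each pair.

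**Figure D5:**
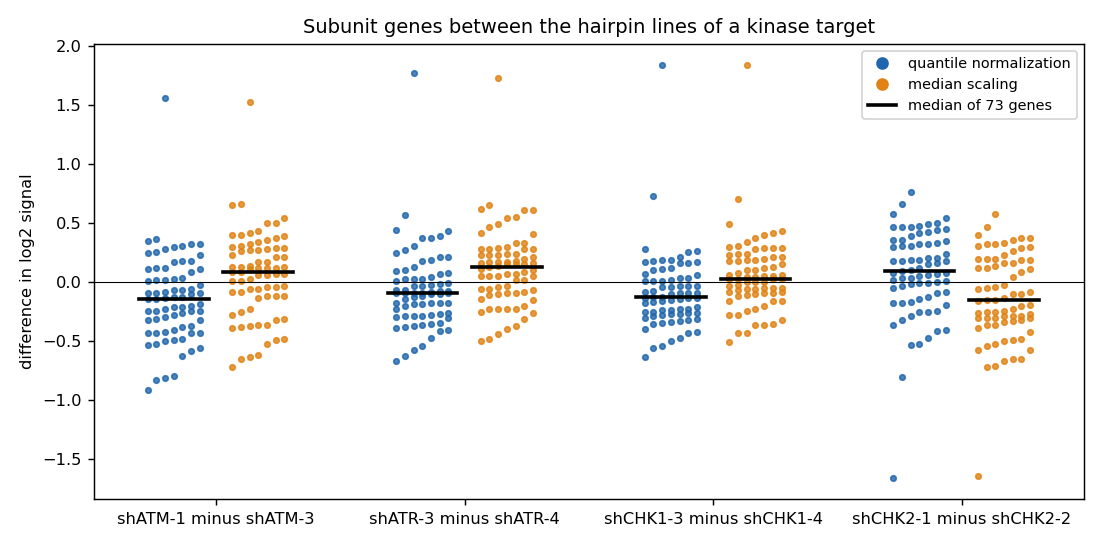
Differences in log2 signal of the 73 genes above background on all arrays between the hairpin lines of each kinase target, after quantile normalization (blue) and after median scaling (orange), with the median as a black bar. The medians lie on opposite sides of 0 under the 2 scalings in every pair, while NDUFA5 is the extreme point in all 4 pairs under both.

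NDUFA5, an accessory subunit of the peripheral arm of complex I, differed between the hairpins of every kinase target. It was 7.91, 8.26 and 8.13 in shATM-1 against 6.45, 6.68 and 6.49 in shATM-3, and 7.95, 8.1 and 8.28 in shATR-3 against 6.23, 6.29 and 6.51 in shATR-4. It was 8.07, 8.23 and 8.01 in shCHK1-3 against 6.17, 6.03 and 6.61 in shCHK1-4, and 8.22, 8.05 and 8.09 in shCHK2-2 against 6.62, 6.06 and 6.71 in shCHK2-1. The 4 high lines lay above every other array, including wild type (7.05, 6.93 and 6.43), shControl (6.47, 6.67 and 6.34) and both sh53BP1 lines (6.42 to 7.12). The differences between hairpins were 1.56, 1.77, 1.84 and -1.66 (SE 0.175 each), 2.94-fold to 3.57-fold, with adjusted p-values between 1.99e-09 and 2.59e-08. Its difference of 0.53 in the mean of the 8 kinase lines thus joined 4 lines with means between 8.1 and 8.12 and 4 between 6.27 and 6.54.

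The same 4 lines, shATM-1, shATR-3, shCHK1-3 and shCHK2-2, stood on one side of their partners for further genes. Of the 78 genes 20 were called in all 4 kinase pairs (25.6%, against 15.9% of all genes). In 15 of them the 4 lines were lower than their partners, in 4 they were higher (NDUFA5, ATP5MC3, ATP5F1C and UQCRBP1), and COXFA4L3 had another order. Over all genes 1761 were called in all 4 pairs, of which 1054 were lower and 660 higher in those 4 lines. With median scaling 11 of the 78 genes were called in all 4 pairs, 2 lower, 8 higher and COXFA4L3, or 14.1% against 17.2% of all genes. Of the 20 genes, 6 were called under both scalings: NDUFA11 and NDUFA3, lower in the 4 lines, NDUFA5, ATP5F1C and UQCRBP1, higher in them, and COXFA4L3.

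NDUFA11, a membrane arm subunit of complex I, was 10.6, 10.94 and 10.95 in shATM-1 against 11.77, 11.91 and 11.57 in shATM-3, and it differed by -0.91, -0.67, -0.63 and 0.76 in the 4 pairs (SE 0.117). NDUFA3 differed by -0.8, -0.57, -0.43 and 0.47. Unlike NDUFA5 and NDUFA11, NDUFA3 was below wild type and shControl in all 8 kinase lines, with 10.3 to 10.68 in the 4 lines and 10.9 to 11.29 in their partners. COXFA4L3 was lower in shATM-1 than in shATM-3 by at least 5-fold, and higher in shCHK2-1 than in shCHK2-2 by at least 6.88-fold. It was higher in shCHK1-3 than in shCHK1-4 by 1.44 (SE 0.169), the opposite order to the other targets, and its second probe was not called there (0.23).

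The 2 sh53BP1 lines were the most alike in number of calls. NDUFB5 was higher in sh53BP1-1 than in sh53BP1-2 by 0.62 (SE 0.102, adjusted p = 8.78e-05), NDUFA6 by 0.35 (adjusted p = 0.0393) and NDUFS3 by 0.29 (adjusted p = 0.037), and COXFA4L3 was lower by 1.55 (SE 0.169), with a second probe that was not called (-0.337). The calls of NDUFA6 and NDUFS3 were lost without the filter on dim probes (adjusted p = 0.065 and 0.0603) and with only the compared groups in the limma fit (0.101 and 0.0764), and that of NDUFS3 also under median scaling (0.0949).

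Across the 12 groups the range of group means was narrowest for UQCRH, a hinge protein of complex III (0.28, from 13.12 to 13.4). In complex I the narrowest was NDUFS8 (0.335), in ATP synthase ATP5PB (0.382) and in complex IV COX7A2 (0.385). The pooled SD of these 4 genes within groups lay between 0.059 and 0.118. In complex II the narrowest was SDHC (0.76) and the widest SDHA (0.94, from 10.12 in shControl to 11.05 in shCHK1-4). In complex III UQCRB had the widest range (1.04, from 10.82 in shCHK1-4 to 11.85 in sh53BP1-1). Among genes above background on all arrays ATP5MK had the widest range of all (4.24) and NDUFA5 the widest in complex I (1.86).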

How the data were processed

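Total RNA of 36 samples was labelled and hybridised to Illumina BeadChips. The deposited signal file holds an intensity per probe and array, which by its values was neither normalized nor background subtracted. Beside each signal the deposited file holds a detection p-value, per the file headers. The second deposited file holds log2 values, and the sources used here do not give the authors' method. Quantile normalizing the log2 raw signals came within 0.0013 of them. Samples were joined to 108 columns through the labels.

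The function neqc (limma 3.58.1, R 4.3.3, data.table version 1.17.8) corrected the background with an offset of 16, quantile normalized the signals and took log2. It estimated the negative controls from detection p-values. Figures used Python 3.11.15 with matplotlib 3.10.9. Of 47231 probes, 30113 had 1 annotated gene, and 18905 were above background (detection p under 0.01) on all 3 arrays of a group, 4033 of them without a single gene. Each gene was read from its brightest such probe (11048 genes). lmFit and eBayes fitted 12 group means over the 36 arrays, with Benjamini-Hochberg adjustment within each contrast and a threshold of 0.05. The code was tested on simulated data. The count of genes called in all 4 kinase pairs under median scaling was added after seeing the data. The number of arrays limits the precision.

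Members, gene lists and tests were chosen with earlier results of these data known. All members may be named, and full values were given for subunit variants with their common forms, for the widest and narrowest range in each complex, and for up to 3 members with the largest called change in each direction per comparison. Of the other lists up to 2 genes with the largest called change were named per comparison. MTAP, CDKN2A, CDKN2B and CCND2 were chosen as genes that mark the lines. Genes below background in a group were given a bound, from the higher of each array's lowest detected signal and the probe's own. The alternatives tried used the deposited values, uncorrected signals, median scaling, all probes whatever their brightness, a block for replicate number, a fit of the compared groups alone, wild type as control, the second probe of a gene, the members without variants, and each array left out in turn.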

Additional observations from a re-analysis of the deposited data

Results flagged for a closer look

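In 4 genes the hairpins of a target moved in opposite directions against shControl, each past the threshold, and the difference between the hairpins was itself called. NDUFB7, an accessory subunit of complex I, was lower in shATR-3 by 0.30 and higher in shATR-4 by 0.32, a difference of -0.62 (adjusted p = 0.000204). The c-ring gene ATP5MC3 was higher in shCHK1-3 by 0.34 and lower in shCHK1-4 by 0.39, a difference of 0.73 (adjusted p = 1.77e-05). ATP5MG, a membrane subunit of ATP synthase, was higher in shCHK2-1 by 0.21 and lower in shCHK2-2 by 0.26, a difference of 0.47 (adjusted p = 3.44e-05). With median scaling in place of quantile normalization the ATP5MG difference was 0.16. NDUFB5, an accessory subunit of complex I, was higher in sh53BP1-1 by 0.25 and lower in sh53BP1-2 by 0.38, a difference of 0.62 (adjusted p = 8.78e-05).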

How the results depend on the processing

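The lower counts of the 8 kinase lines kept their size under the alternatives run (50 to 55 lower and 11 to 16 higher; 52 to 55 and 13 to 14 with an array left out). The deposited log2 values gave smaller differences, with a median ratio of 0.938 to the reported ones, and 15 of 100 named values were smaller by over 1.5 times, but none lost its call. The residuals of arrays with the same replicate number correlated by -0.000629 on average, against 0.000385 for other numbers. The lowest value for the same number was -0.246. The averages showed no pairing of samples by number, but an average over all groups cannot exclude it in some of them. With the replicate number as a block (replicate block), no call among the 100 named values changed, the 8 kinase lines kept 54 lower and 13 higher genes, and the other counts moved by at most 2. Signal over background limits the 5 members that were not above it on every array.

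Median scaling moved the calls to 7 lower in shControl, 17 lower for CHK2, 8 lower for 53BP1, and 18 and 16 (ATM), 15 and 7 (ATR), 12 and 4 (CHK1) and 10 and 25 (CHK2) higher and lower between hairpins. It reversed the median of the 73 genes in those 4 pairs, to 0.088, 0.132, 0.033 and -0.151, and in shCHK2-2 against shControl, to 0.001; the cause was not tested. The second probe reversed ATP5MC2 between shControl and wild type (-0.162) and in sh53BP1-2 (0.509) and UQCR10 in shCHK1-4 (-0.392), and it gave 8 higher in the CHK1 pair, 18 higher in the CHK2 pair and 0 lower in the 53BP1 pair. Without the variants 0 were lower in the 53BP1 pair, and with the deposited values or without background correction 2 were. Without a filter on dim probes 6 were higher in the ATM pair and 1 in the 53BP1 pair. With wild type as control 2, 2, 3 and 8 were higher for ATM, ATR, CHK2 and 53BP1. With the first hairpin against shControl and the second against wild type these were 3, 4, 2 and 7, and the other way round 2 (ATM), 2 (ATR), 3 (CHK1) and 4 (CHK2). With only the compared groups in the fit, and so fewer arrays, 4 were lower in shControl, 3 and 5 higher for CHK1 and CHK2, 5 higher in the ATM pair, 3 higher and 5 lower in the CHK1 pair, and 1 higher in the 53BP1 pair.

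Leaving out each array in turn gave 1 to 3 higher and 6 to 11 lower in shControl than in wild type. Against shControl it gave 2 to 5 higher and 16 to 21 lower for ATM, 4 to 8 and 24 to 30 for ATR, 3 to 6 and 26 to 32 for CHK1, 5 to 9 and 24 to 28 for CHK2, and 13 to 20 and 10 to 16 for 53BP1. Between hairpins it gave 5 to 12 and 26 to 33 (ATM), 7 to 9 and 16 to 22 (ATR), 4 to 8 and 14 to 26 (CHK1), 20 to 25 and 10 to 13 (CHK2) and 1 to 3 and 1 (53BP1). Counts moved by over 1.5 times without replicate 2 of shATM-1 (3 higher for ATM, 6 in the ATM pair) or replicate 3 of shATM-1 (5), without any array of shATM-3 (6, 7 and 6 higher in the ATM pair), and without replicate 1 of shCHK1-3 (3 higher for CHK1). They also did without replicate 2 of shCHK1-3 (8 higher in the CHK1 pair), replicate 3 of shCHK1-4 (14 lower there) and replicate 2 of shCHK2-2 (5 higher for CHK2). The 53BP1 pair had 1 higher without replicate 1 or 3 of sh53BP1-1 or replicate 2 or 3 of sh53BP1-2.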
